A study of Homo sapiens with 6 samples.

Results

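The tables of small RNA from BEAS-2B cells held 200 predicted piRNAs placed in DNA transposons, among 940 predicted piRNAs of any repeat class, 1574 rows of the class piRNA and 4212 rows in all. They were taken as the rows of the class piRNA whose description carries the repeat class DNA followed by a family name, and each was identified by its identifier together with its description. BEAS-2B is an immortalised line of human bronchial epithelial cells. Of the 6 libraries, 3 came from cells that received pcDNA-PRMT1, a plasmid expressing the protein arginine methyltransferase PRMT1, and the other 3, the control libraries, from cells that received the empty plasmid pcDNA3.1, each for 48 h. Whether replicates came from separate cultures is not stated in the labels, and the spread that the p-values rest on may therefore be technical. The comparison asks how the small RNAs of these cells respond to PRMT1.

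PiRNAs are small RNAs bound by PIWI proteins, and they are best known from germ cells, where they guide the silencing of transposons. In flies and mice, PIWI proteins carry methylated arginines that Tudor proteins recognise, placed chiefly by PRMT5, another enzyme of the family of PRMT1. DNA transposons move by excision and insertion without an RNA copy, and those of the human genome are fossils that no longer move. The hAT superfamily includes the Charlie, Tip100 and Blackjack elements, and the Tc1/mariner superfamily includes the Tigger and Mariner elements. A predicted piRNA here is a row that the submitters' pipeline named as such. Binding to a PIWI protein was not measured, so the name says nothing about function.

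Counts outside the rows that name no feature summed to 14436427 to 15804202 reads in PRMT1 libraries and to 14439219 to 19235780 reads in control libraries. The lowest count of any predicted piRNA was 10 in every library, which equals 0.388 to 0.417 CPM, a count scaled to the library total, in PRMT1 libraries and 0.399 to 0.417 CPM in control libraries. Why a row is missing is not stated in the sources used here. A predicted piRNA without a row was taken to have held fewer than 10 reads. It was entered as 0, and it may have held up to 9. There were 2 libraries that stood apart. In control library 2, known miRNAs took 65.5% of all counts, against 46.2% to 60.01% elsewhere, and PRMT1 library 1 held 80194 reads of catalogued piRNAs, against 278892 to 586850 elsewhere. The cell type label was checked on miRNA markers. All 7 epithelial markers had a row, and their sum was 8170 to 8815 CPM of known miRNA counts in PRMT1 libraries and 7674 to 10057 CPM in control libraries. Of 8 germ line markers, 4 had no row (miR-507, miR-510-5p, miR-513a-5p and miR-514a-3p), and the sum was 1.24 to 2.10 CPM in PRMT1 and 0.866 to 1.21 CPM in control libraries. Of 8 pluripotency markers, miR-367-3p and miR-373-3p had no row, and the sum was 0.0824 to 0.277 CPM in PRMT1 and 0.0807 to 0.173 CPM in control libraries. That of 5 blood markers was 8.04 to 19.9 CPM in PRMT1 and 4.68 to 6.76 CPM in control libraries without overlap, and its part in the results was not tested. The sums of the other lists overlapped between the groups. They were 10.1 to 13.02 CPM in PRMT1 and 10.7 to 13.1 CPM in control libraries for 4 muscle markers, and 0.624 to 1.26 CPM in PRMT1 and 0.548 to 1.65 CPM in control libraries for the liver marker. For 3 neural markers they were 524 to 713 CPM in PRMT1 and 465 to 742 CPM in control libraries, and for the endothelial marker 1615 to 2240 CPM in PRMT1 and 1523 to 2022 CPM in control libraries. For 2 fibroblast and smooth muscle markers they were 23.5 to 36.5 CPM in PRMT1 and 23.3 to 28.8 CPM in control libraries.

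The 200 predicted piRNAs lay in 49 elements on 17 chromosomes or unplaced sequences. The description gives the interval of the repeat element and not that of the small RNA, so all rows of an element carry the same position. Coordinates are given as in the files. The build named in the submitters' processing notes is GRCh37.p13, and the files do not say whether starts are counted from 0 or 1. The elements spanned 37 to 2425 bases with a median of 216, and 24 lay on the plus and 25 on the minus strand. In all 49 elements the identifiers ran in consecutive numbers. An element held 1 to 55 predicted piRNAs with a median of 1. Of the elements, 30 held a single one, and these 30 had 10 to 151 reads each over all libraries, 15 of them listed in a single library. Rows of one element share their source and may overlap in sequence, so they are not independent observations. The tables give no position within the element, and the sources used here do not say how a read matching several rows was counted.

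The hAT superfamily held most of the rows and reads. The hAT-Charlie family had the most rows, 112 in 23 elements (56.0% of rows), but it held 31.3% of the reads. The hAT-Tip100 family had 52 rows in 5 elements (26.0%) and 60.6% of the reads. TcMar-Tigger had 21 rows in 11 elements and 5.67% of the reads, and TcMar-Mariner had 10 rows in 7 elements and 1.90% of the reads. The hAT-Blackjack family had 4 rows in 2 elements. The family written TcMar? had 1 row, novel_pir651, listed only in PRMT1 library 3 with 14 reads. Element length differed between the families, with median spans of 774 bases in TcMar-Tigger, 209 in hAT-Charlie, 127 in hAT-Tip100 and 78 in TcMar-Mariner.

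**Figure D1:**
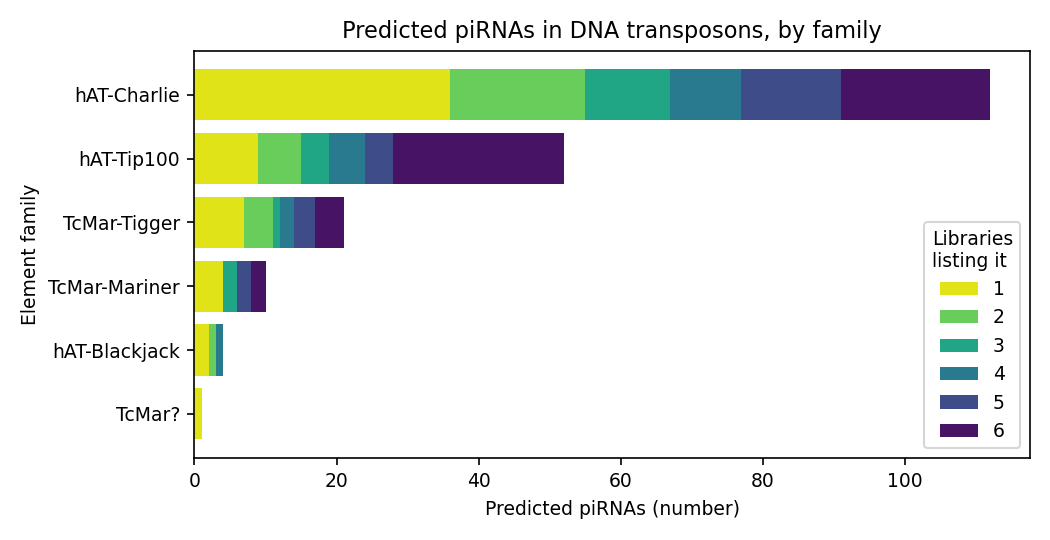
Number of predicted piRNAs in each family of DNA transposon, with the colour of a bar segment giving the number of libraries, of 6, that listed the row. The hAT-Charlie family had 36 rows listed in a single library and 21 listed in all 6, whereas hAT-Tip100 had 9 and 24.

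Most reads came from 2 elements. An hAT-Tip100 element of chromosome 11 (62126034 to 62126618, plus strand) held 40 rows and 56.9% of the reads. An hAT-Charlie element of chromosome 3 (61684855 to 61685144, minus strand) held 55 rows and 18.2% of the reads. Together they held 95 of the 200 rows (47.5%) and 22835 reads (75.1%). The next were an hAT-Charlie element of chromosome 6 (105543220 to 105543546, minus strand) with 12 rows and 6.21% of the reads, a TcMar-Tigger element of chromosome 5 (74534547 to 74535401, minus strand) with 4 rows and 2.66%, and an hAT-Charlie element of chromosome 2 (73914367 to 73914474, minus strand) with 12 rows and 2.42%. An hAT-Tip100 element of the unplaced sequence gl000220 (111506 to 111614, plus strand) held 8 rows and 2.35% of the reads. A search for neighbours of the elements left out known miRNAs, which may lie at or near any of them. In that search, the gl000220 element was the only one of the 49 with a predicted miRNA listed within 10000 bases. There were 2 of these on the same strand, novel_mir6 at 111189 to 111244 and novel_mir1 at 111695 to 111745, which lay 262 and 81 bases away. This element has the same family, strand and span (108) as an element of chromosome 16 (33964922 to 33965030), whose single row was listed only in control library 1 with 19 reads. The chromosome 2 element likewise shared its family, strand and span (107) with one of chromosome 15, whose single row was listed only in PRMT1 library 1 with 18 reads. Whether reads could match both copies was not tested.

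The level was low and concentrated in few rows. Mean CPM over the 6 libraries ran from 0.0646 to 25.8 with a median of 0.339. The row of highest level held 12.3% of all reads of the 200, the first 5 held 35.0% and the first 20 held 59.9%. In each library, the listed rows had a median of 18 to 22 reads in PRMT1 and 19 to 23 reads in control libraries. Between 22.7% and 31.0% of the listed rows in PRMT1 libraries and between 32.0% and 37.9% in control libraries held 10 to 14 reads, just above the listing limit.

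Listing was reproducible for a minority of the rows. All 6 libraries listed 51 rows (25.5%), which held 76.4% of the reads, while 59 rows (29.5%) were listed in a single library, with 10 to 58 reads and a median of 12. The share listed in all 6 libraries was 26.7% of 329 rows in LTR elements and 40.4% of 399 rows in LINE elements, and the share listed in a single library was 34.3% and 23.1%. The rows listed in a single library were 21, 8 and 13 in PRMT1 libraries 1 to 3 and 12, 1 and 4 in control libraries 1 to 3. By element, 12 of 49 had a listed row in every library and 15 in a single library. Among the 51 rows listed in every library, the highest CPM exceeded the lowest by 1.56 to 6.56 times with a median of 2.44. The coefficient of variation of these 51 rows had a median of 30.3% over PRMT1 libraries and 30.7% over control libraries.

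More rows were listed in PRMT1 libraries, 141, 110 and 129, against 111, 75 and 103 in control libraries. The groups overlapped, since PRMT1 library 2 lay below control library 1. The difference between group means was 30.3 rows, and 19.7 without control library 2. Of the 200 rows, 62 were listed in PRMT1 libraries only, 19 in control libraries only and 119 in both. These shares of 31.0% and 9.5% were close to those over all 940 predicted piRNAs, of which 29.9% were listed in PRMT1 libraries only and 9.47% in control libraries only. Of the 62, 42 were listed in 1, 18 in 2 and 2 in all 3 PRMT1 libraries, and of the 19, 17 were listed in 1 and 2 in 2 control libraries. PRMT1 libraries also averaged more rows in the other repeat classes, with 226, 142 and 212 rows in PRMT1 and 177, 118 and 176 in control libraries for LTR elements, and 293, 250 and 304 in PRMT1 and 237, 191 and 253 in control libraries for LINE elements. Counted by element the difference was 3.0, with 36, 19 and 31 elements in PRMT1 and 33, 19 and 25 in control libraries. Rows that held 10 to 14 reads numbered 42, 25 and 40 in PRMT1 and 39, 24 and 39 in control libraries. How far the number listed depends on the limit of 10 reads was not tested. The difference in number gets no test because the rows were chosen with earlier results known.

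The summed level was 313, 189 and 226 CPM in PRMT1 libraries 1 to 3 and 179, 146 and 190 CPM in control libraries 1 to 3. PRMT1 library 2 lay just below control library 3, so the groups overlapped on this scale, although the raw sums of 7520, 4862 and 5411 reads in PRMT1 and 4392, 3668 and 4558 reads in control libraries did not. The means were 242 ± 63.8 CPM in PRMT1 and 172 ± 22.8 CPM in control libraries (SD, n = 3 each), a log2 ratio of 0.50, which was 0.27 without PRMT1 library 1. Over the rows listed in all 6 libraries the means were 175 ± 45.0 CPM in PRMT1 and 141 ± 10.6 CPM in control libraries, with PRMT1 libraries 2 and 3 below control library 3. Over the other rows, which are entered as 0 where not listed, they were 67.7 ± 23.0 CPM in PRMT1 and 30.6 ± 14.3 CPM in control libraries. Sums over LTR elements were 648 ± 318 CPM in PRMT1 and 445 ± 97.4 CPM in control libraries, and sums over LINE elements were 992 ± 114 and 885 ± 243 CPM.

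Among the families, hAT-Charlie stood at 89.0, 71.6 and 77.8 CPM in PRMT1 and 53.8, 32.6 and 63.9 CPM in control libraries without overlap. Only 21 of its 112 rows were listed in every library. PRMT1 libraries listed 72, 60 and 74 of its rows and control libraries 57, 30 and 53. An unlisted row added nothing to the sum, although it may have held reads below the listing limit. How far the separation of this family rests on that limit was not tested. The hAT-Tip100 family was at 199, 109 and 130 CPM in PRMT1 and 103, 103 and 109 CPM in control libraries, where PRMT1 library 1 was far above the others and PRMT1 library 2 was within the control range. TcMar-Tigger was at 17.4, 6.44 and 12.4 CPM in PRMT1 and 16.6, 7.05 and 10.9 CPM in control libraries. TcMar-Mariner was at 5.87, 1.98 and 4.26 CPM in PRMT1 and 4.37, 3.19 and 4.04 CPM in control libraries. Both Tc1/mariner families thus had group means that differed by less than the spread within a group, and the level was lowest in library 2 of each group. The hAT-Blackjack family was listed in PRMT1 libraries 1 and 3 with 41 and 29 reads and in control libraries 1 and 3 with 41 and 43 reads. The sum over the 200 rows was 5.43% of the piRNA class in PRMT1 library 1, against 0.773% and 0.976% in PRMT1 libraries 2 and 3 and 0.909% to 1.17% in control libraries, as catalogued piRNAs were few in that library.

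**Figure D2:**
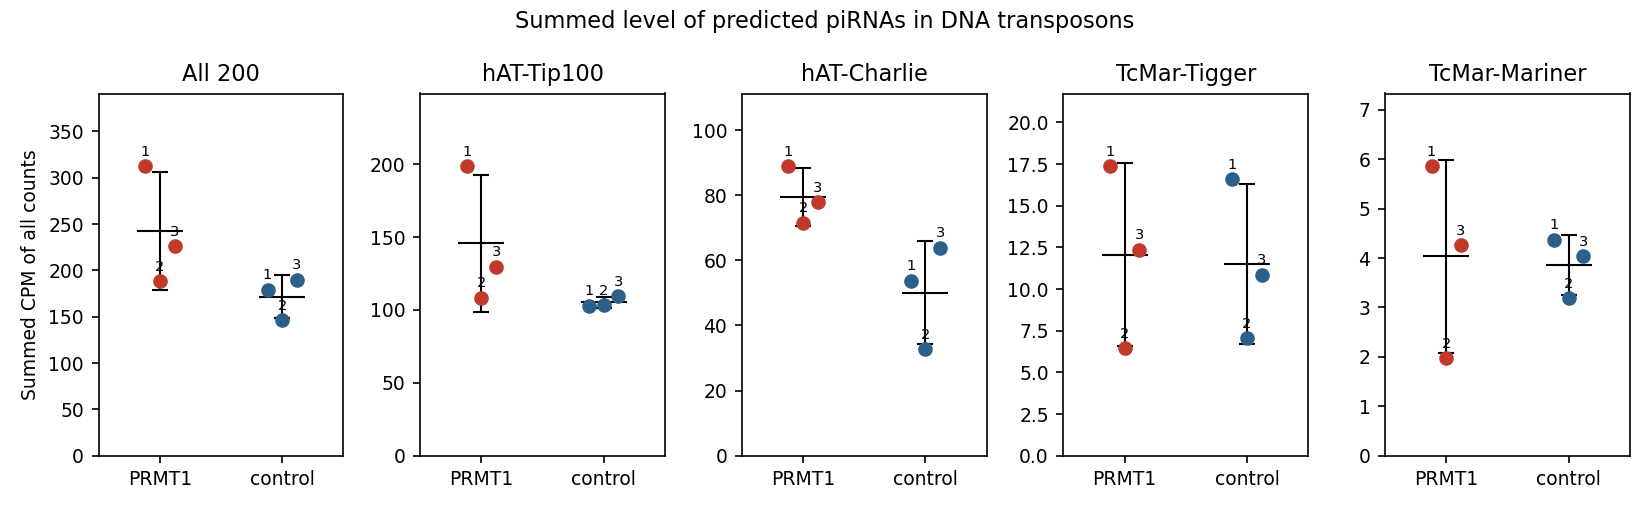
Summed CPM of all counts of the 200 predicted piRNAs and of the 4 largest families in each library, PRMT1 left and control right, with points numbered by replicate, the mean as a bar and the SD as whiskers. Libraries do not overlap in hAT-Charlie, at 71.6 to 89.0 CPM in PRMT1 and 32.6 to 63.9 CPM in control, while PRMT1 library 1 is highest in every panel. Rows that a library did not list add nothing to its sum.

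No predicted piRNA in a DNA transposon passed the threshold between PRMT1 and control libraries. In a fit over all 1712 rows with enough counts, edgeR called 0 of the 104 tested members and 0 rows in all (0% of rows tested) at a Benjamini-Hochberg adjusted p of 0.05, and the adjusted p of each member was at least 0.9997. At an unadjusted p under 0.05 there were 5 members, 4 higher and 1 lower in PRMT1 libraries, where the background over all rows tested was 3.5% (1.87% higher and 1.64% lower). DESeq2 called 2 of the 200 members and 10 of the 3474 rows to which it gave an adjusted p (0.288%). By limma-voom, 0 members and 0 rows passed, and 4 members had an unadjusted p under 0.05. The other 96 members were not tested, 89 of them listed in 1 or 2 libraries. Of the 104 tested, 53 lacked a row in at least 1 library, and a row that passes the filter only through the group where it is high had to differ. The median log2 fold change was 0.061 over the 51 members listed in all 6 libraries, with 28 above and 23 below 0. It was 0.81 over the 53, with 41 above 0, and 0.0019 over all rows tested. These counts describe the rows and support no difference. The groups did not overlap in TMM-scaled CPM in 8 members that were higher, against a background of 3.56%, and in 4 that were lower, against a background of 4.73%. Of the 8, 6 had fewer than 6 listed libraries.

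**Figure D3:**
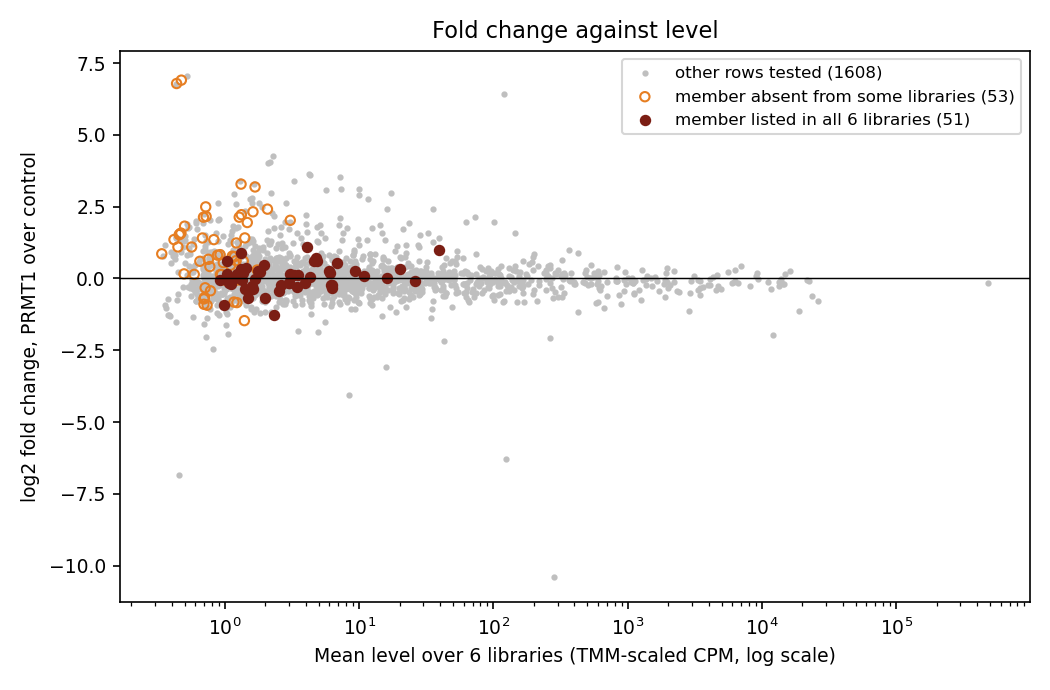
Log2 fold change of PRMT1 over control (vertical) against the mean TMM-scaled CPM over 6 libraries (horizontal, log scale) for the rows tested, with filled points for the 51 members listed in all 6 libraries, open points for the 53 others and grey points for other rows. The filled points lie around 0 with a median of 0.061, and the open points reach 6.90.

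The 2 members of smallest p were those that DESeq2 called. Row novel_pir328, in the chromosome 3 element, had 16, 18 and 12 reads in PRMT1 libraries and no row in control libraries. Row novel_pir344, in the same element, had 16, 11 and 15 reads in PRMT1 libraries and no row in control libraries. The adjusted p by edgeR was 0.9997 for both. DESeq2 gave adjusted p-values of 0.0330 and 0.0348 with the control libraries entered as 0, and it was not run with unlisted rows at 9 reads. If an unlisted row is taken to hold up to 9 reads per library, the size of the difference depends on that limit and on the scaling. Against 9 reads in each control library, mean CPM of the library totals was 1.69-fold higher for novel_pir328 and 1.56-fold higher for novel_pir344 in PRMT1 libraries, and TMM-scaled CPM 1.60-fold and 1.48-fold higher. In the fit with unlisted rows set to 9 reads, their log2 fold changes were 0.67 and 0.54, against 6.90 and 6.79 with unlisted rows at 0, so the larger values are no measure of the difference.

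In the hAT-Tip100 element of chromosome 11, summed reads were 4524, 2624 and 2940 in PRMT1 and 2322, 2483 and 2416 in control libraries. The control libraries lay close together and PRMT1 library 1 stood far above the rest. Fitted as 1 row, the element was 0.40 higher on the log2 scale (SE 0.28, adjusted p = 0.9965 by edgeR, elements in place of rows), and the groups overlapped after TMM scaling. Of its 40 rows, 31 were tested with log2 fold changes of -0.93 to 3.28, and 21 were listed in every library with values of -0.67 to 1.11. Its rows did not move together. Row novel_pir733, the row of highest level of the 200, had 1424, 233 and 873 reads in PRMT1 and 410, 264 and 544 reads in control libraries. PRMT1 libraries 1 and 3 were the highest and PRMT1 library 2 the lowest of all 6, and the log2 fold change was 0.99 (SE 0.65), or 0.43 without PRMT1 library 1. Row novel_pir733 held 31.5%, 8.88% and 29.7% of the element's reads in PRMT1 and 17.7%, 10.6% and 22.5% in control libraries.

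Row novel_pir731, 2 numbers away and second in level, had 538, 335 and 352 reads in PRMT1 and 348, 310 and 566 reads in control libraries. Its groups overlapped, with a log2 fold change of -0.077 (SE 0.34). Row novel_pir703 had 428, 420 and 252 reads in PRMT1 and 253, 381 and 175 reads in control libraries (log2 0.34, SE 0.39). Row novel_pir705 had 208, 326 and 248 reads in PRMT1 and 234, 316 and 182 reads in control libraries (log2 0.0017, SE 0.34). In both groups novel_pir705 was highest in library 2, whereas novel_pir733 was lowest there. Row novel_pir725 had 277, 108 and 156 reads in PRMT1 and 160, 138 and 184 reads in control libraries (log2 0.089, SE 0.39). The log2 fold changes of novel_pir712, novel_pir726 and novel_pir710 were -0.23 (SE 0.34), -0.25 (SE 0.27) and 0.20 (SE 0.43). None of these rows separated the groups.

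Rows novel_pir711 and novel_pir715 of the same element did separate them, though neither passed the threshold. Row novel_pir711 had 102, 81 and 88 reads in PRMT1 and 51, 43 and 25 reads in control libraries, 3.69 ± 0.551 CPM in PRMT1 and 1.61 ± 0.528 CPM in control (SD, n = 3 each). Its log2 fold change was 1.11 (SE 0.36, adjusted p = 0.9997 by edgeR), and 0.91 to 1.35 when any one library was left out. Row novel_pir715 had 27, 28 and 28 reads in PRMT1 and 16, 14 and 12 reads in control libraries, 1.13 ± 0.0416 CPM in PRMT1 and 0.570 ± 0.0775 CPM in control (SD, n = 3 each). Its replicates were close together in each group, and its log2 fold change was 0.90 (SE 0.37, adjusted p = 0.9997 by edgeR). Row novel_pir724 had 44, 10 and 50 reads in PRMT1 and 10 and 11 reads in control libraries 1 and 2, with no row in control library 3. Its groups overlapped, as PRMT1 library 2 was at the control level (log2 2.22, SE 1.18). Row novel_pir719 had 12, 20 and 23 reads in PRMT1 and 22, 35 and 26 reads in control libraries (log2 -0.67, SE 0.44; -0.42 without control library 2). Rows numbered 734, 735 and 740, picked after their values were seen, were likewise higher in PRMT1 libraries 1 and 3 than in the other 4 libraries. Row novel_pir734 had 91, 17 and 60 reads in PRMT1 and 30 in control library 3. Row novel_pir735 had 46 and 67 reads in PRMT1 libraries 1 and 3 and 11 in control library 3. Row novel_pir740 had 77 and 67 reads in PRMT1 libraries 1 and 3 and 15 in control library 3, and no other library listed it.

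**Figure D4:**
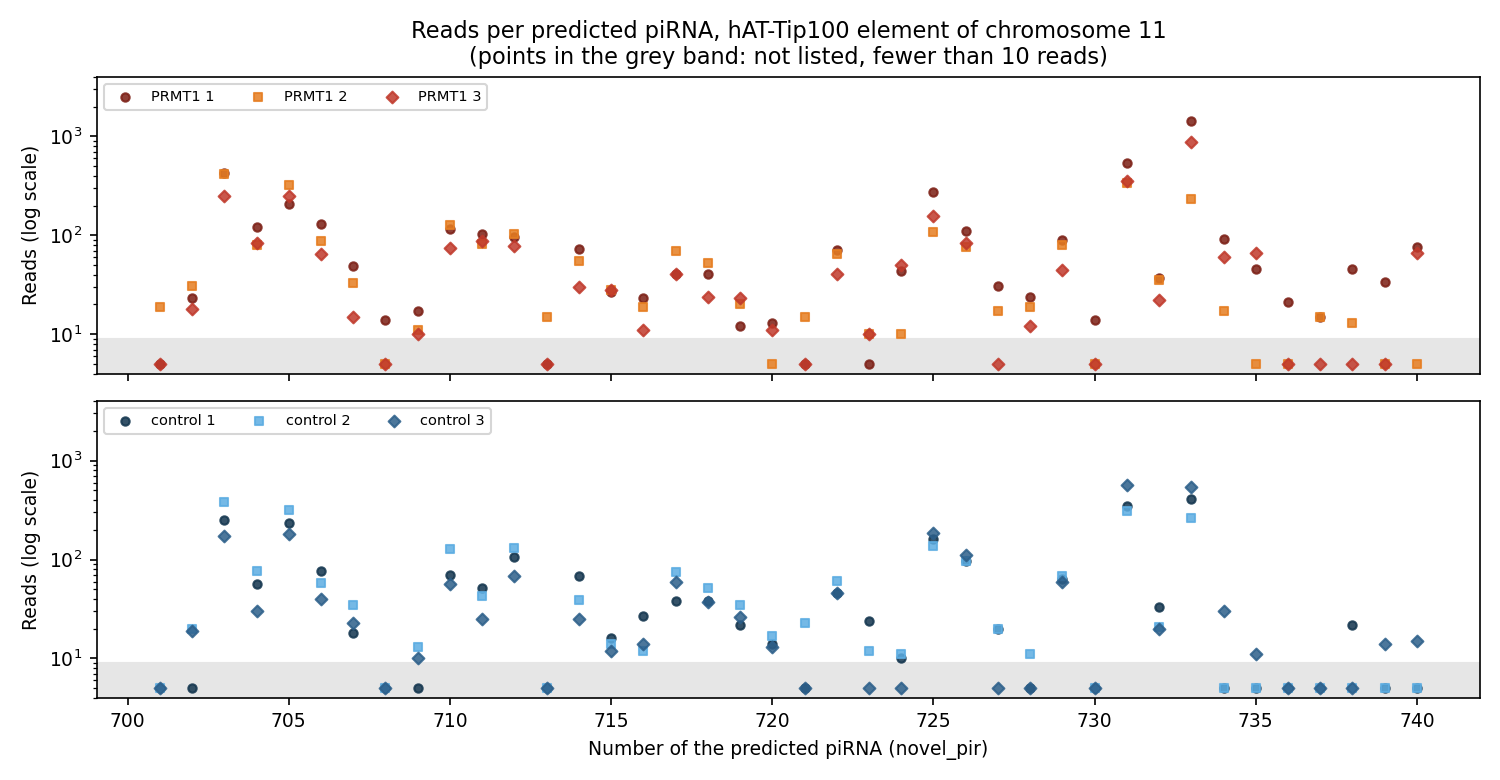
Reads per predicted piRNA (log scale) in the 40 rows of the hAT-Tip100 element of chromosome 11, ordered by identifier number, for the 3 PRMT1 libraries (top) and the 3 control libraries (bottom). Points in the grey band mark libraries that did not list the row. Row novel_pir733 is the highest point of the top panel, at 1424 reads in PRMT1 library 1.

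In the hAT-Charlie element of chromosome 3, summed reads were 1096, 1211 and 1034 in PRMT1 and 775, 395 and 1015 in control libraries. The raw sums did not overlap, but they did after TMM scaling, where the log2 difference was 0.54 (SE 0.37, adjusted p = 0.9965 by edgeR). Of its 55 rows, 13 were listed in a single library and 11 in every library. Among those 11 the log2 fold change ran from -0.38 to 0.48, with 4 above 0. Row novel_pir340 led with 232, 120 and 137 reads in PRMT1 and 111, 51 and 229 reads in control libraries. Control libraries 2 and 3 were its lowest and nearly its highest value, and the log2 fold change was 0.26 (SE 0.57), or -0.11 without control library 2. Row novel_pir329 had 92, 105 and 72 reads in PRMT1 and 86, 75 and 161 reads in control libraries (log2 -0.34, SE 0.37; 0.13 without control library 3). Row novel_pir314 had 29, 40 and 32 reads in PRMT1 and 12 and 10 reads in control libraries 1 and 3, with no row in control library 2. Its groups did not overlap, and its log2 fold change was 2.13 (SE 1.02), or 1.61 with unlisted rows set to 9 reads. Row novel_pir341, picked after its values were seen, had 125, 18 and 93 reads in PRMT1 and 12 and 44 reads in control libraries 1 and 3. It was high in PRMT1 libraries 1 and 3 and low in PRMT1 library 2.

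**Figure D5:**
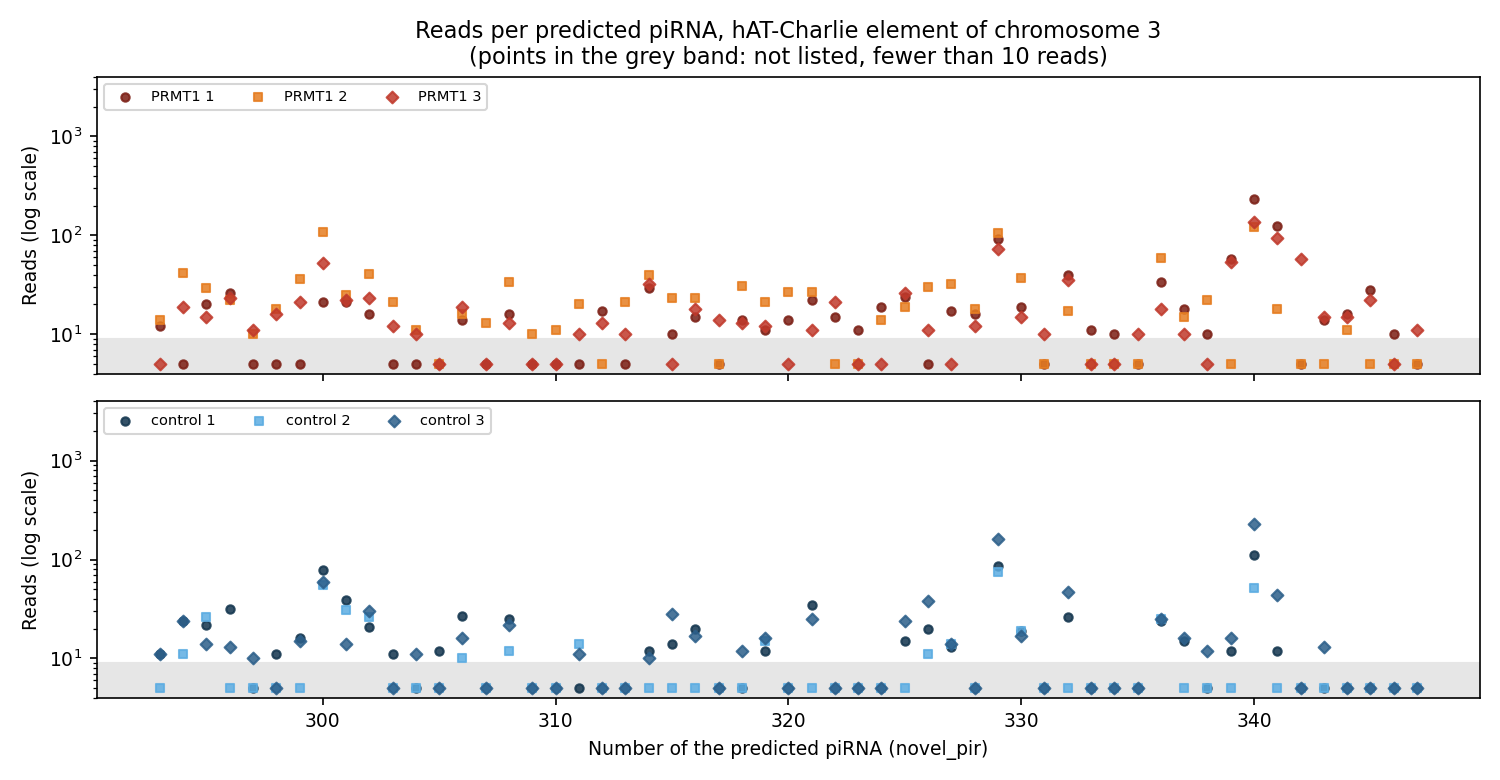
Reads per predicted piRNA (log scale) in the 55 rows of the hAT-Charlie element of chromosome 3, ordered by identifier number, for the 3 PRMT1 libraries (top) and the 3 control libraries (bottom), with unlisted rows in the grey band. Most rows lie below 60 reads, and novel_pir340 reaches 232 reads in PRMT1 library 1 and 229 in control library 3.

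The other elements differed in direction. In the hAT-Charlie element of chromosome 6, summed reads were 461, 457 and 226 in PRMT1 and 160, 282 and 304 in control libraries, with PRMT1 library 3 among the control values (log2 0.51, SE 0.41). Its 7 tested rows had log2 fold changes of 0.17 to 1.24. Row novel_pir418 had 161, 145 and 85 reads in PRMT1 and 55, 98 and 98 reads in control libraries (log2 0.54, SE 0.38), and novel_pir422 had a log2 fold change of 0.26 (SE 0.36). Unlike in the 2 larger elements, the leading row kept its share, since novel_pir418 held 31.7% to 37.6% of the element's reads in PRMT1 and 32.2% to 34.8% in control libraries. The TcMar-Tigger element of chromosome 5 had 222, 84 and 176 reads in PRMT1 and 116, 70 and 141 reads in control libraries (log2 0.49, SE 0.46). Its leading row, novel_pir393, had 133, 33 and 100 reads in PRMT1 and 54, 38 and 77 reads in control libraries (log2 0.59, SE 0.56; 0.22 without PRMT1 library 1). Both the element and its leading row overlapped between the groups. The hAT-Charlie element of chromosome 2 that starts at 73914367 had 174, 84 and 250 reads in PRMT1 and 135, 39 and 54 reads in control libraries (log2 1.12, SE 0.61). PRMT1 library 3 was the highest, and PRMT1 library 2 lay below control library 1. Row novel_pir395, the leading TcMar-Mariner row, on chromosome 5, had 32, 22 and 17 reads in PRMT1 and 21, 29 and 29 reads in control libraries (log2 -0.25, SE 0.39). The leading hAT-Blackjack row, novel_pir27, was listed in libraries 1 and 3 of each group, with 12 and 13 reads in PRMT1 and 29 and 12 reads in control.

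A TcMar-Tigger element of chromosome 1 (212484821 to 212485692, plus strand) was lower in PRMT1 libraries in each of its 3 rows without overlap. Its sum was 55, 35 and 44 reads in PRMT1 and 159, 75 and 73 reads in control libraries, or 1.83 ± 0.465 CPM in PRMT1 and 4.17 ± 2.01 CPM in control (SD, n = 3 each). The log2 fold change of the element was -1.26 (SE 0.41, adjusted p = 0.9965 by edgeR). Row novel_pir67 had 26, 25 and 15 reads in PRMT1 and 76, 40 and 36 reads in control libraries (log2 -1.28, SE 0.42; -0.84 without control library 1). Row novel_pir68 had 12, 10 and 11 reads in PRMT1 and 33, 13 and 14 reads in control libraries (log2 -0.91, SE 0.58; -0.34 without control library 1). Row novel_pir66 had 17 and 18 reads in PRMT1 libraries 1 and 3 and 50, 22 and 23 reads in control libraries (log2 -1.47, SE 1.12; -0.88 without PRMT1 library 2). Control library 1 was the highest in each of the 3 rows, and since they share an element they count as 1 observation.

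With elements in place of rows, 25 of the 49 had enough counts and 0 passed the threshold, and 2 had an unadjusted p under 0.05, where the background over all 1307 rows of this fit was 3.52%. Groups did not overlap in 1 element that was higher and 1 that was lower, against backgrounds of 2.91% and 5.89%. One was the chromosome 1 Tigger element, and the other an hAT-Charlie element of chromosome 2 (64949043 to 64949944, plus strand). The chromosome 2 element had 45, 28 and 26 reads in PRMT1 and 22, 13 and 12 reads in control libraries without overlap (log2 0.99, SE 0.40, adjusted p = 0.9965 by edgeR). Of its 4 rows, 1 was listed in every library. In the gl000220 element, sums were 151, 128 and 94 reads in PRMT1 and 137, 61 and 145 reads in control libraries (log2 0.046, SE 0.39). Row novel_pir941 of that element had 46, 37 and 22 reads in PRMT1 and 43, 28 and 64 reads in control libraries (log2 -0.44, SE 0.43). Row novel_pir170, in an hAT-Charlie element of chromosome 2 (122716229 to 122716589, plus strand), had 42, 18 and 15 reads in PRMT1 and 50, 35 and 28 reads in control libraries (log2 -0.67, SE 0.49). Both overlapped between the groups. Row novel_pir590, picked after its values were seen, is the only row of an hAT-Charlie element of chromosome 7 (14425211 to 14425628, minus strand). It had 36 and 115 reads in PRMT1 libraries 1 and 3, and no other library listed it.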

How the data were processed

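Small RNA of 3 PRMT1 and 3 control libraries was sequenced and filtered by BGI, per the series' design text. Per the submitters' processing notes, the tools were HISAT, Bowtie2 and RSEM and the build GRCh37.p13, with neither role nor version. How piRNAs were predicted was not given in the sources used here. Deposited counts are whole reads per row. A deposited TPM column matched CPM of each library's total within 0.005 and served only for that check.

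The members and lists were chosen with earlier results of these data known. Rows not listed in a library were entered as 0. The 4 rows that name no feature (exon, intron, intergenic, repeat), 34.3% to 40.4% of counts in PRMT1 and 23.3% to 39.9% in control libraries, were left out of the fit, which departs from the design written for all rows. Over the 4208 other rows, filterByExpr, TMM and the robust quasi-likelihood test of edgeR 4.0.16 (R 4.3.3) were used without a block, with Benjamini-Hochberg adjustment over 1712 rows. The SE is the log2 fold change over the root of F. The script was tested on simulated data. DESeq2 1.42.0 and limma 3.58.1 were alternatives. Replicates were not copies, as the lowest chi-square per degree of freedom between 2 libraries was 432.1.

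Named rows were those past the threshold, the 6 of smallest p per direction, the 10 of highest mean CPM, the highest of each family, the 12 highest listed in every library and up to 5 elements of highest sum. Other names were chosen after their values were seen. The cell type markers were 9 lists of miRNAs. Counting error limits rows of 10 to 30 reads, and intervals were not computed.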

Additional observations from a re-analysis of the deposited data

How the results depend on the processing

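The count of 0 members past the threshold stayed 0 with RLE, upper quartile and library size scaling, limma-voom, no filter, a filter of 2 CPM in 3 libraries, piRNA rows only, elements in place of rows, each library left out (0 to 0), and, chosen after seeing the data, unlisted rows at 9 reads and the 4 unnamed rows kept. DESeq2 gave 2, novel_pir328 and novel_pir344, with unlisted rows at 0, and it was not run with them at 9 reads. Scaling by library size alone moved the median of all rows by 0.15, to 0.15, with the members' median at 0.41. Relative to counts outside the 4 unnamed rows, chosen after seeing the data, the members' sums were 475.8, 316.2 and 374.8 CPM in PRMT1 libraries. They were 287.5, 190.7 and 315.7 CPM in control libraries, without overlap. The ratio of group means was 1.47 on that scale and 1.41 relative to all counts. The summed log2 ratio of 0.50 was 1.22 relative to the piRNA class, in which PRMT1 library 1 held few reads, and -0.24 on that scale without this library, an alternative chosen after seeing the data. It was 0.36 with unlisted rows at 9 reads, and it ran from 0.27 to 0.65 with one library left out. The difference of 30.3 listed rows was 3.0 by element and ran from 19.7 to 38.7 with one library left out. Limits of at least 5 or 10 reads changed nothing, as no listed row holds fewer. Of 27 named members tested, 7 changed sign under some setting. Outside the left-out libraries, novel_pir731 was at 0.039 with library size alone, novel_pir705 at -0.071, -0.0067 and -0.064 with piRNA rows only, unlisted rows at 9 and unnamed rows kept, and novel_pir725 at -0.014 with limma-voom and -0.013 with the replicate block. With one library left out, log2 fold changes ran from -0.30 to 0.27 for novel_pir731, -0.14 to 0.29 for novel_pir705, -0.33 to 0.37 for novel_pir725, -0.11 to 0.98 for novel_pir340, -0.51 to 0.13 for novel_pir329, -0.40 to 0.049 for novel_pir712 and -1.29 to 0.44 for novel_pir27. No named row has a value of its own with elements in place of rows, and as no elements overlap, summing overlapping rows gives those same elements. The causes were not tested. With the replicate number as a block, 0 members passed. Deviations of same-numbered libraries correlated at 0.129, 0.188 and -0.0077, which does not show pairing, and PRMT1 libraries 1 and 2 but not 3 correlated best with the control of their number.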

Other observations

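One element annotated as a DNA transposon without a family name lay outside the 200 rows and held more reads than all of them, 46224 against 30411. It is on the X chromosome (151127053 to 151127127, minus strand) and had 12 predicted piRNAs, whose sums were 373, 288 and 353 CPM of all counts in PRMT1 and 266, 307 and 298 CPM in control libraries, with PRMT1 library 2 among the control values. Novel_pir921 held 66.1% of these reads, with 5948, 5108 and 5507 reads in PRMT1 and 4258, 5037 and 4694 reads in control libraries, which was 247, 198 and 230 CPM in PRMT1 and 174, 201 and 196 CPM in control libraries. The groups did not overlap in raw reads, but in CPM PRMT1 library 2 lay below control library 2. These rows were chosen after their values were seen. They were among the rows given to the edgeR fit, in which 0 rows passed the threshold, and their fold changes are not reported here. Known miRNAs were not searched for at the position of this X chromosome element, so the source of its reads was not tested.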
